A study of Mus musculus with 7 samples.

Results

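The proteins of the cytosolic ribosome were followed in sorted mouse thymocytes through every array probe whose gene name starts with Rpl or Rps and a digit, or is Rplp0, Rplp1, Rplp2 or Rpsa, leaving out the Rps6k kinases. This took 82 gene names with 137 probes, out of 27962 names and 41174 probes on the array. A probe entered the tests when 1 of its channels stood clear of background on 3 or more arrays, which 135 of the 137 did. The remaining 2, Rps2 probe A_52_P182478 and Rps6 probe A_52_P531325, did so on 2 arrays each, and all 82 names kept a probe. The rule also takes 2 probes of Rps19bp1, whose product is a binding partner of a small subunit protein and no subunit itself. Each of 7 Agilent 2-colour arrays set RNA of DN4 thymocytes from BALB/c mice that were Rag2-/- and carried the KN6 T cell receptor transgene against RNA of DN3 thymocytes from Rag2-/- mice without it. The DN4 cells were labelled Lig+ (4 arrays) or Lig- (3 arrays). All cells therefore came from animals that cannot rearrange receptor genes of their own. The arrays are called biological replicates in the series text, and whether the DN3 RNA was 1 pool or several is not stated in the sources used here. If it was 1 pool, p-values leave out the spread of DN3 cells.

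Ribosomal proteins of the large (Rpl) and small (Rps) subunit are needed in near equal amounts, and their messages are among the most abundant in a growing cell. Many of these messages start with a pyrimidine stretch through which the mTOR pathway sets their translation, so that protein output can change while the message level does not. In thymocytes Rpl22 is known for its part in the development of αβ T cells, and its paralogue Rpl22l1 can take its place in the ribosome. Ribosomal protein genes have many processed pseudogenes, and a probe can share sequence with such copies.

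Whole-array checks were as follows. Between 72.9% and 84.9% of probes stood clear of background in DN4 RNA and between 75.8% and 83.7% in DN3 RNA. No array had a saturated spot. Probes of the DN3 stage markers Il2ra, Ptcra, Rag1 and Dntt were lower in Lig+ DN4 cells for 11 of 11 probes by limma, which fits a linear model to all probes and adjusts p over all 34886 tested. In Lig- cells this held for 10 of 11. Probes of the mitotic genes were higher in Lig+ cells for 16 of 25 and in Lig- cells for 0 of 25, where 17.7% and 16.3% of all probes were. Set directly against Lig- cells, Lig+ cells were higher for 1 of the 25, where 4.57% of all probes were. The median difference of the 25 was 0.77, with a median SE of 0.369 against 0.13 over all probes. The part of the mitotic genes in the ribosomal protein values was not tested. DN4 RNA carried Alexa 647 on slide 1 (Lig+ 1 and Lig- 1) and Alexa 555 on slides 2 to 4, with DN3 RNA in the other dye.

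Several genes had probes that gave unlike readings, and some of them are printed here. They are examples and not the widest apart, since dye coefficients differed more between the probes of Rpl37 (by 1.61) and Rps25 (by 1.54). They were chosen after their values were seen, and come from the deposited array files, 5′ to 3′, each 60 bases long. For Rpl29 and Rpl35a, capitals mark the longest run that a pair of probes shares. Rpl29 and Rps3a are shown because probes of the same message differed in their dye coefficient. Rpl35a is shown because its overlapping probes differ in letters after the shared run, and 1 probe each of Rpl22 and Rpl22l1 because they are paralogues.
Rpl29 A_51_P400137: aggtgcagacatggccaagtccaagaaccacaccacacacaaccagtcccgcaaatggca
Rpl29 A_52_P326158: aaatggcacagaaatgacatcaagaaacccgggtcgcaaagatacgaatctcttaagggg
Rpl29 A_52_P505977: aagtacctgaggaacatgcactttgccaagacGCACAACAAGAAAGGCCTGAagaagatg
Rpl29 A_52_P217069: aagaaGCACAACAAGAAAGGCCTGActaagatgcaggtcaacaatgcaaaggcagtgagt
Rps3a A_52_P49886: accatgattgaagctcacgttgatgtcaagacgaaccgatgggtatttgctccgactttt
Rps3a A_51_P292357: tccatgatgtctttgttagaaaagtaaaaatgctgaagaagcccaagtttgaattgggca
Rpl35a A_51_P509107: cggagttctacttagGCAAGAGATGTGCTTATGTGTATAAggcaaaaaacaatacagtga
Rpl35a A_52_P288669: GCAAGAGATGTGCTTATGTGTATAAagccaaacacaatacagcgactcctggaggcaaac
Rpl22 A_51_P387878: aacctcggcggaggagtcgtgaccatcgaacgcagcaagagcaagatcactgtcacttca
Rpl22l1 A_51_P218814: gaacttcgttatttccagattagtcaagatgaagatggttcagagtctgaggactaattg
The Rpl29 pair shares a run of 20 bases, and over the 28 bases from its start to the end of A_52_P505977 it differs at 2. The Rpl35a pair shares a run of 25 bases, and over the 45 bases from its start to the end of A_51_P509107 it differs at 4. The files assign both probes of each pair to the same message.

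For most ribosomal protein probes the sign of the ratio followed the dye orientation of the array. The median log2 ratio of DN4 over DN3 over the ribosomal protein probes was 1.11 on Lig+ 1 and 1.00 on Lig- 1, the arrays with DN4 RNA in Alexa 647. It was -0.63 on Lig+ 2, -0.85 on Lig- 2, -1.25 on Lig+ 3, -1.12 on Lig- 3 and -1.44 on Lig+ 4, all with DN4 RNA in Alexa 555. The median over all probes lay between -0.0084 and 0.0068 on every array. By the median, the Alexa 647 channel was the brighter one for these probes on all 7 arrays, and the medians of the 2 orientations did not overlap.

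**Figure D1:**
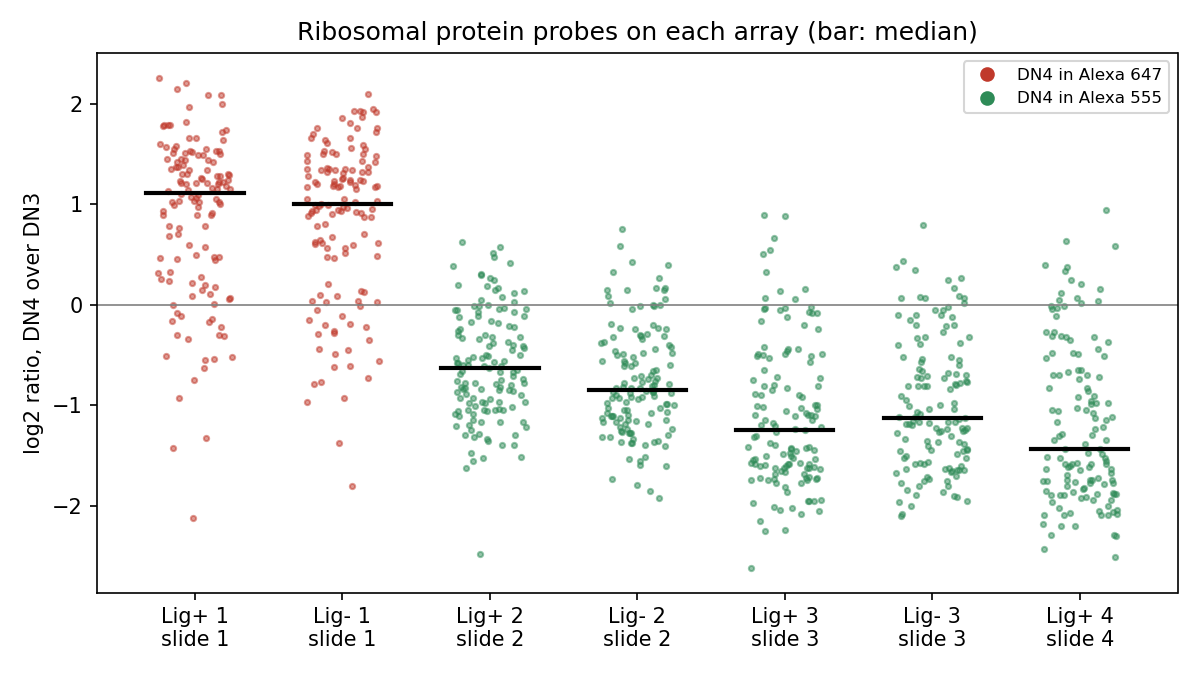
Log2 ratio of DN4 over DN3 (y axis) of each ribosomal protein probe on the 7 arrays (x axis), coloured by the dye of the DN4 RNA, with the median as a bar. The medians were 1.11 and 1.00 on slide 1 and between -1.44 and -0.63 on the other slides.

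Of 127 ribosomal protein probes measured on all 7 arrays, 84 were brighter in Alexa 647 on every one and 0 were brighter in Alexa 555 on every one, where 3.02% and 1.34% of all probes were. The fit held a dye term, the log2 ratio added when DN4 RNA was in Alexa 647 and subtracted when it was in Alexa 555. Its median was 1.10 over the ribosomal protein probes and -0.01 over all probes. It passed an adjusted p of 0.05 for 79 of 135 ribosomal protein probes, 58.5%, against 0.828% of all probes, and was positive in all 79. They made up 27.3% of the probes so called and 0.387% of those tested. The Alexa 647 orientation lay on slide 1 alone, so the dye and slide 1 cannot be told apart. The call rests on both arrays of that slide: with Lig+ 1 or Lig- 1 left out it was made for 0 of the 135, and without Lig+ 3 or Lig- 3 for 48 or 45, while the median stayed between 1.01 and 1.16 with any 1 array left out. On scan day 1 alone, which held slides 1 and 2 and so both orientations, the median was 0.96, with 99 probes called positive and 4 negative. Scan day 2 held 1 orientation only.

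The coefficient was large mainly in bright spots, which the scanner reads from a second, low-gain scan. The scanner software read 103 of the 135 probes from the low-gain scan in both channels on every array, and their median dye coefficient was 1.27, with 78 called. For the other 32 it was -0.00089, with 1 called. Other genes' probes read at low gain in the same way numbered 1389, with a median dye coefficient of 0.039 and 145 called. The mitochondrial ribosomal proteins, whose subunits sit in another ribosome, had a median of -0.055 over 124 probes, with 0 called by limma (29 at an unadjusted p under 0.05).

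**Figure D2:**
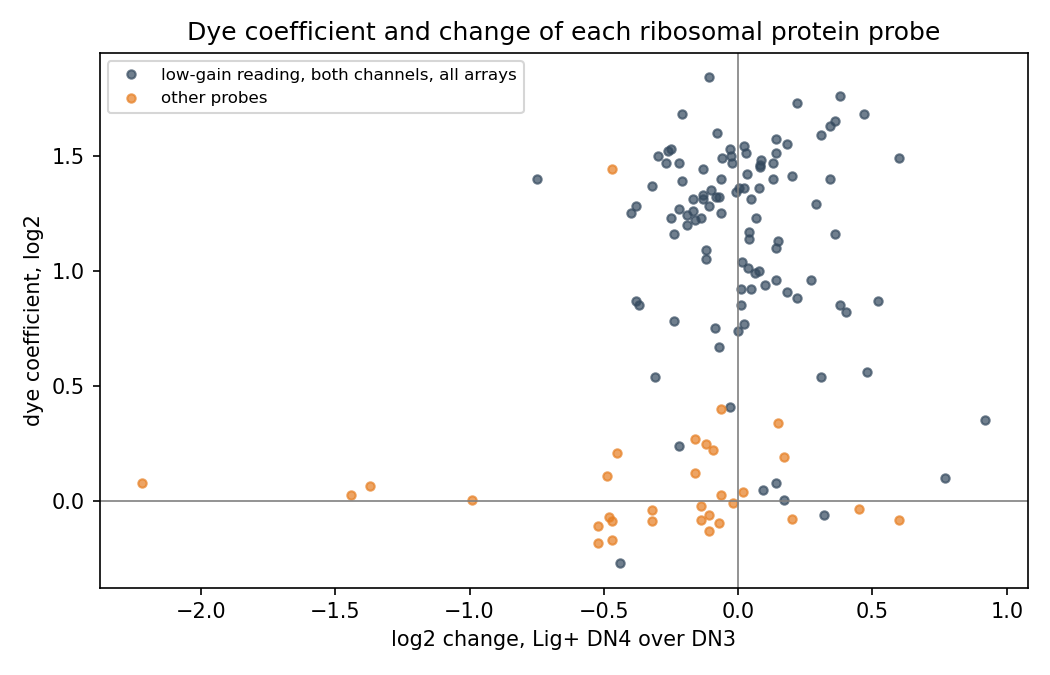
Dye coefficient (y axis, log2) against the change in Lig+ DN4 over DN3 cells (x axis, log2) for 135 ribosomal protein probes, coloured by whether the spot was read from the low-gain scan. Probes read at low gain had a median coefficient of 1.27 and the others -0.00089.

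Probes of 1 gene could differ in the dye coefficient. Among 40 gene names with several probes, 17 held coefficients more than 1 apart. Rps3a (now Rps3a1), a small subunit protein, had a coefficient of 1.47 for A_52_P49886 and 0.05 for A_51_P292357. A_52_P49886 read 1.26 on Lig+ 1 and 1.15 on Lig- 1, then -1.48, -1.41, -1.74, -2.0 and -2.07 on Lig+ 2, Lig- 2, Lig+ 3, Lig- 3 and Lig+ 4. A_51_P292357 read 0.091, 0.09, -0.18, -0.24, 0.14, 0.067 and 0.21 on the arrays from Lig+ 1 to Lig+ 4 in the same order. The first probe swung with the orientation and the second stayed near 0. Of the 4 Rpl29 probes, the coefficients were 1.28 for A_51_P400137, 0.54 for A_52_P326158, 0.079 for A_52_P505977 and -0.061 for A_52_P217069. Over the 103 probes read at low gain, the coefficient and the share of A in the probe had a Pearson r of -0.48 and a Spearman rho of -0.52, a description across probes of the same arrays, and over all 135 they were -0.14 and -0.23.

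**Figure D3:**
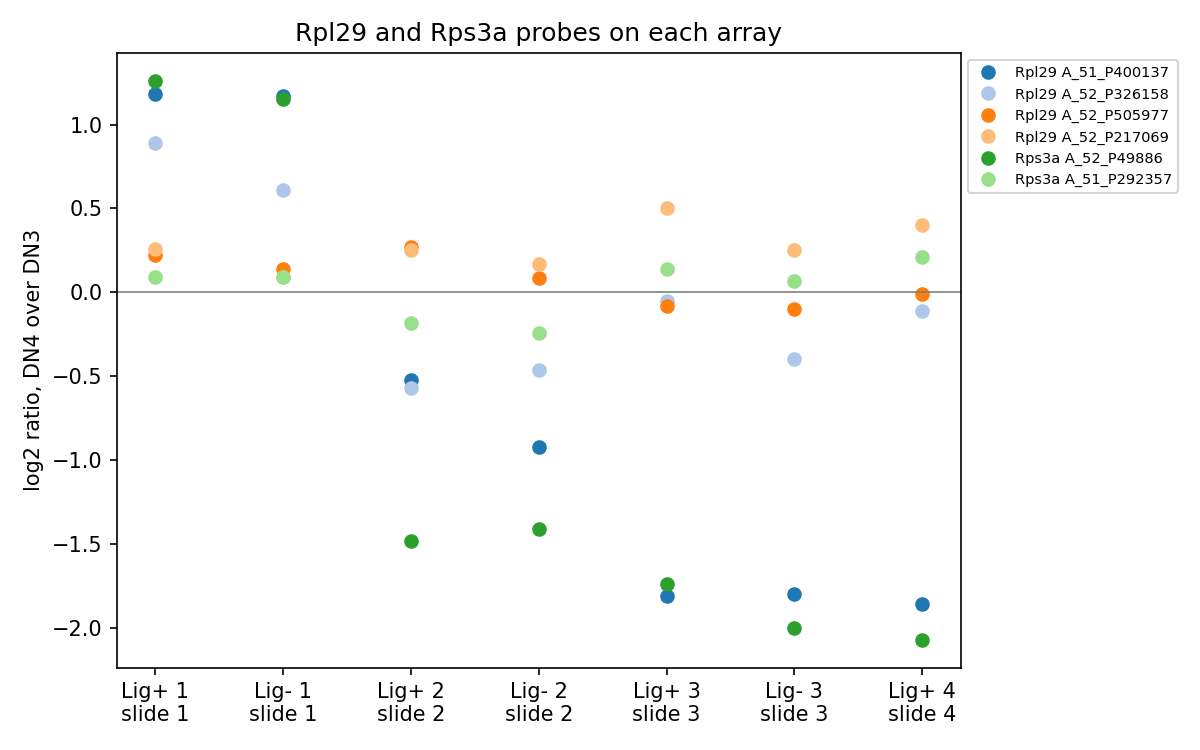
Log2 ratio of DN4 over DN3 (y axis) of the Rpl29 and Rps3a probes on each array (x axis). Rps3a A_52_P49886 runs from 1.26 on Lig+ 1 to -2.07 on Lig+ 4, while A_51_P292357 stays between -0.24 and 0.21.

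With the dye term in the fit, the ribosomal protein probes of Lig+ DN4 cells had a median change of -0.03, with 10 probes higher and 13 lower of 135, or 17%, against 36.6% of all probes (17.7% higher and 18.9% lower). An unadjusted p under 0.05 was reached by 33. The estimate's 95% interval lay within a log2 of 1 either way for 121 probes and within 0.5 for 48, against 28015 and 17832 of all 34886. The median SE in Lig+ cells was 0.136 for the ribosomal protein probes and 0.0919 over all probes. In Lig- cells it was 0.149 and 0.101. The shares of calls were not compared at equal precision. The large subunit had 4 higher and 6 lower of 78 probes, and the small subunit 6 higher and 5 lower of 55. In Lig- cells the median was 0.024, with 8 higher and 13 lower, or 15.6%, against 31.8% of all probes. The 2 comparisons share the DN3 RNA and the dye term. With scan day as a fixed term beside dye, 15 probes were higher and 37 lower in Lig+ cells and 13 and 37 in Lig- cells. The counts also depended on the arrays: without Lig+ 1 there were 2 higher and 7 lower in Lig+ cells, without Lig+ 2 12 higher and 26 lower, and without Lig- 1 there were 1 higher and 3 lower in Lig- cells, which without Lig+ 2 had 15 higher. Within scan day 1 there were 68 higher and 20 lower in Lig+ cells (median 0.17) and 42 and 25 in Lig- cells (0.055). Within scan day 2, where dye could not be a term, there were 6 and 112 (-1.32) and 2 and 102 (-1.12). Each scan day held few arrays, and shares over all probes are not given for these other fits.

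Fewer probes kept 1 direction on every array. Their dye coefficients ran from -0.18 to 0.35, and keeping 1 sign in both orientations itself favours small ones. Of 127 probes measured on all 7 arrays, 5 were higher and 11 lower in DN4 cells on every one, in all 12.6% where 32.3% of all probes did so. The largest change was that of Rpl3l, the paralogue of Rpl3 known from heart and skeletal muscle, read as -2.12, -1.80, -2.48, -1.73, -2.24, -2.10 and -2.20 on the arrays in the order Lig+ 1, Lig- 1, Lig+ 2, Lig- 2, Lig+ 3, Lig- 3 and Lig+ 4. Its change was -2.22 ± 0.091 (SE, n = 4) in Lig+ cells, limma adjusted p 1.87e-05, and -1.85 ± 0.10 (SE, n = 3) in Lig- cells, adjusted p 6.26e-05. Rpl3 itself, with a dye coefficient of 1.22, had no called change (-0.16 ± 0.22 in Lig+ cells, SE, n = 4).

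Among small subunit probes, Rps20 A_52_P142346 fell by 1.44 ± 0.082 (SE, n = 4) in Lig+ cells and by 1.33 ± 0.09 (SE, n = 3) in Lig- cells, with limma adjusted p of 5.27e-05 and 0.000139. It read -1.33, -1.38, -1.30, -1.38, -1.65, -1.26 and -1.52 on the arrays in the same order. The other Rps20 probe, A_52_P5210, was not called at 0.13 ± 0.23 and 0.084 ± 0.25, with a dye coefficient of 1.40. The array assigns the Rps20 probes to different sequence records. The Rps24 probe A_52_P100002 read between -1.67 and -0.93 on all 7 arrays and was -1.37 ± 0.14 in Lig+ and -1.17 ± 0.15 in Lig- cells (SE), and A_52_P537084 was -0.47 ± 0.083 and -0.68 ± 0.091. The third Rps24 probe, A_51_P312936, was not called at -0.19 ± 0.23 and 0.18 ± 0.25, with a dye coefficient of 1.20. It is assigned to another record than the called Rps24 probes, both of which hold a stop codon in every forward reading frame. Whether the called Rps20 and Rps24 probes follow the coding messages was not tested. Rps21 rose in Lig+ cells by 0.92 ± 0.11 for A_52_P740562 and 0.77 ± 0.081 for A_52_P678800 (SE, n = 4), limma adjusted p 0.000894 and 0.000594. Both were also called in Lig- cells, by 0.61 and 0.50. Neither has an open forward reading frame. The third probe, A_51_P489959, was 0.60 ± 0.18 with an adjusted p of 0.048, but it had a dye coefficient of 1.49 and no value on Lig- 2. Rps25 A_52_P436318 was 0.45 ± 0.08 in Lig+ cells (adjusted p 0.00558) and 0.11 ± 0.088 in Lig- cells (adjusted p 0.424). The other Rps25 probe, A_51_P274768, was 0.029 ± 0.18 and 0.049 ± 0.19, with a dye coefficient of 1.51.

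**Figure D4:**
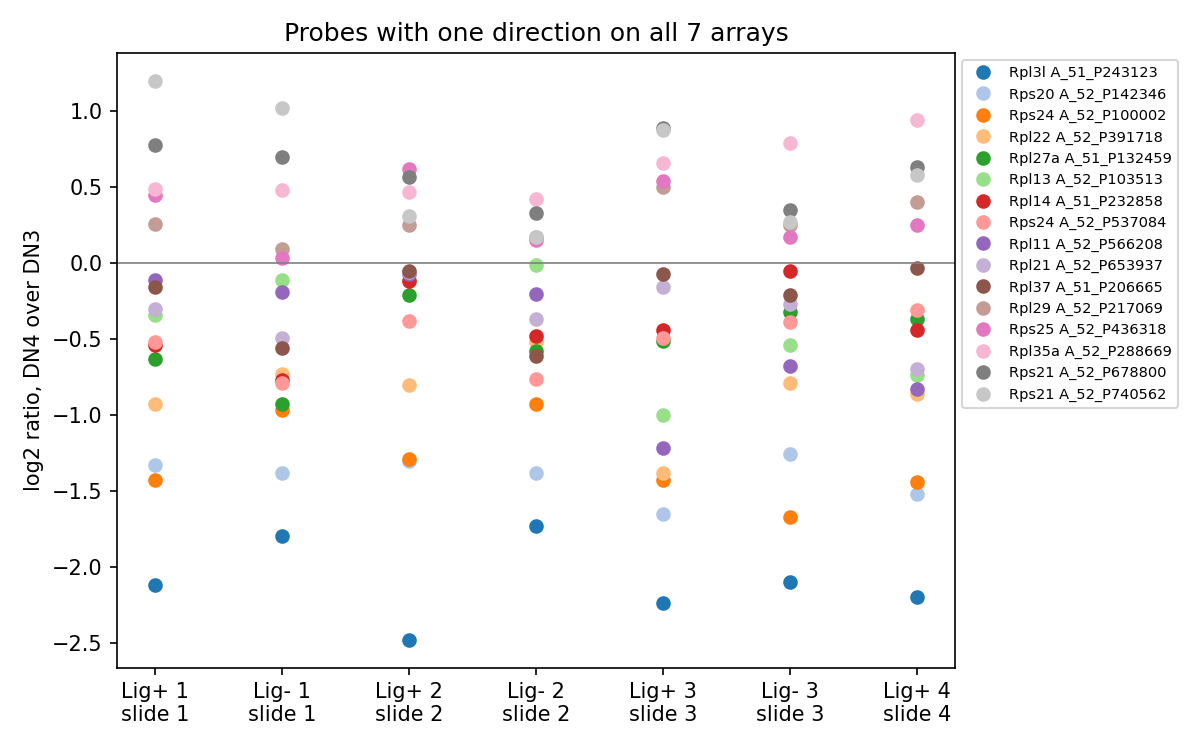
Log2 ratio of DN4 over DN3 (y axis) on each array (x axis) of the 16 ribosomal protein probes with 1 direction on all 7 arrays. Rpl3l lies lowest, between -2.48 and -1.73, and Rps21 A_52_P740562 lies between 0.17 and 1.20.

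Large subunit probes with 1 direction included Rpl27a A_51_P132459 at -0.52 ± 0.085 in Lig+ and -0.67 ± 0.093 in Lig- cells (SE), whose other probe A_51_P418662 was not called at -0.16 ± 0.24 and -0.0035 ± 0.26, and Rpl14 A_51_P232858 at -0.47 ± 0.11 and -0.49 ± 0.12. Rpl35a A_52_P288669 was higher, by 0.60 ± 0.11 (SE, n = 4) in Lig+ and by 0.54 ± 0.12 (SE, n = 3) in Lig- DN4 cells, limma adjusted p 0.00539 and 0.0148. It read between 0.42 and 0.94 on all arrays, whereas the overlapping A_51_P509107 read 1.06, 1.25, 0.30, -0.34, -1.08, -0.84 and -1.15, with a dye coefficient of 0.88. Rpl29 A_52_P217069 was 0.32 ± 0.066 in Lig+ cells, adjusted p 0.00979, and its 3 other probes were not called. Of 19 calls in Lig+ cells among the probes named here, 8 held with each array left out and under every other setting tried: Rpl3l, Rps20 A_52_P142346, Rps24 A_52_P100002, Rps21 A_52_P740562 and A_52_P678800, Rpl22 A_52_P391718, Rpl27a A_51_P132459 and Rps19bp1 A_52_P474797. In Lig- cells 3 of 16 did, those of Rpl3l, Rps20 A_52_P142346 and Rps24 A_52_P100002. Each of the other 11 calls in Lig+ cells was lost without Lig+ 1, and each of the other 13 in Lig- cells without Lig- 1. Among gene names with several probes, 2 had every probe called the same way in Lig+ cells, Rps21 and Rps19bp1, the latter no subunit. The call of Rps21 A_51_P489959 was lost under several other settings. The share over all gene names with several probes is not given.

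Rpl22 gave different readings from its 2 probes. A_51_P387878 read 1.42, 1.36, -0.71, -0.70, -1.42, -1.13 and -1.49 on the arrays in the order given above, with a dye coefficient of 1.23, and its change was 0.066 ± 0.16 (SE, n = 4) in Lig+ cells. A_52_P391718 read -0.93, -0.73, -0.80, -0.52, -1.38, -0.79 and -0.86, was lower on every array, and fell by 0.99 ± 0.12 in Lig+ cells (limma adjusted p 0.00106) and by 0.68 ± 0.13 in Lig- cells (adjusted p 0.00935). Which probe follows the mature message was not tested. Its paralogue Rpl22l1 had A_51_P218814 at 0.48 ± 0.13 in Lig+ cells (adjusted p 0.0275) and 0.048 ± 0.14 in Lig- cells, and A_52_P65897 at -0.12 ± 0.23 and -0.32 ± 0.26. On the Lig+ arrays A_51_P218814 read 1.03, -0.32, 0.059 and 0.05, with a dye coefficient of 0.56. Its Lig+ call was lost with median centring, without the dye term and on scan day 2 alone. The call was also lost without any 1 of Lig+ 1, Lig- 1, Lig+ 3 and Lig+ 4.

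The paralogue list, with Rpl3l, Rpl22 and Rpl22l1 in it, had 2 probes higher and 3 lower of 22 in Lig+ cells and 1 higher and 4 lower in Lig- cells. That is 22.7% in each group, against 36.6% and 31.8% of all probes. Rpl10 A_51_P495895 was higher by 0.40 ± 0.078 in Lig+ cells and by 0.35 ± 0.085 in Lig- cells (SE), though its ratios were positive on slide 1 alone (1.21 and 1.18) and negative elsewhere, and without the dye term it was -0.0092 in Lig+ cells. Rpl7l1 A_51_P110147 fell by 0.44 and 0.39 but read 0.12 on Lig+ 4, and its other probe A_52_P343343 was not called at -0.11 and -0.29. Rps27l, a p53 target and paralogue of Rps27, was called at -0.36 in Lig- cells and not at -0.22 in Lig+ cells (limma adjusted p 0.0722). Its difference between the groups was not called (0.15, adjusted p 0.473), and its Lig- call was lost without any 1 Lig- array. Of the stalk proteins, through which elongation factors reach the ribosome, Rplp0 was lower by the fit in Lig+ cells, at -0.37 ± 0.11 (adjusted p 0.0355). Its ratios were positive on slide 1 (0.46 and 0.56) and negative elsewhere, its dye coefficient was 0.85, and its value ran from -1.38 to -0.21 over the other settings, with an adjusted p of up to 0.284. The call was lost with median centring, without the dye term, with the Lig+ arrays fitted alone and without any 1 of 6 arrays. Of the other stalk proteins, Rplp1 (0.34, adjusted p 0.0892) and Rplp2 (0.082, adjusted p 0.701) were not called. Rpl5, Rpl11 and Rpl23, which bind MDM2 and so tie ribosome assembly to p53, had 5 probes, with 0 called in Lig+ cells by limma (0 at an unadjusted p under 0.05) and 1, Rpl23 A_51_P108190 at -0.35 ± 0.091 (adjusted p 0.0276), in Lig- cells, or 20%, against the same shares of all probes. The Rpl5 probe had no value on Lig+ 3.

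Lig+ and Lig- DN4 cells could be set against each other within slides 1, 2 and 3. The median of Lig+ minus Lig- over the ribosomal protein probes was 0.052 on slide 1, 0.17 on slide 2 and -0.16 on slide 3, so its sign differed between slides. In the fit the median was -0.067, and 0 of 135 probes passed the threshold by limma (7 at an unadjusted p under 0.05), where 10.9% of all probes did (4.57% higher and 6.35% lower). The median SE of this difference was 0.193 for the ribosomal protein probes and 0.13 over all probes. The smallest p belonged to Rpl31 A_52_P321875, a large subunit protein, at 0.15, 0.19, -0.034 and -0.31 in Lig+ cells against -0.62, -0.48 and -0.64 in Lig- cells. The difference was 0.59 ± 0.14 (SE), adjusted p 0.0515. The other Rpl31 probe, A_51_P452820, was -0.14 in Lig+ and -0.20 in Lig- cells, neither called. With slide as a fixed replicate block, which compares arrays of the same slide, 4 probes were higher (Rpl31 A_52_P321875, Rps26 A_51_P302675, Rps25 A_52_P436318 and Rpl22l1 A_51_P218814) and 1 lower (Rps19bp1 A_51_P176505), 3.7% against 20.5% of all probes, with 22 at an unadjusted p under 0.05. Within scan day 1 alone, which held only slides 1 and 2, 26 probes were higher and 8 lower. That fit rests on few arrays, and its share over all probes is not given. Rps19bp1 A_51_P176505 read -0.51, -0.22, -0.57 and -0.48 on the Lig+ arrays and -0.15, 0.058 and 0.019 on the Lig- arrays. It fell in Lig+ cells by 0.48 and its other probe by 0.52, and they were -0.049 and -0.11 in Lig- cells.

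Lists of genes that make or serve ribosomes were read in the same fit, and their difference from the ribosomal proteins was not tested. Over all probes 17.7% were higher and 18.9% lower in Lig+ cells, 36.6% in all, and 31.8% changed in Lig- cells. Of 30 probes for ribosome biogenesis factors and Myc, 22 were lower and 0 higher in Lig+ cells, with a median of -0.55. In Lig- cells 17 were lower and 2 higher, and the shares called were 73.3% and 63.3%. Myc, a regulator that drives transcription of the other genes in this list, fell in Lig+ cells by 1.84 ± 0.26 (SE, n = 4) for A_52_P108346 (limma adjusted p 0.00214). Wdr12, a factor of large subunit assembly, fell there by 1.52 ± 0.14 for A_52_P161167. The mitochondrial ribosomal proteins had 7 higher and 51 lower of 124 probes in Lig+ cells, median -0.21, or 46.8%, and 6 and 49 in Lig- cells, or 44.4%. Elongation factors and partners had 2 higher and 5 lower of 18 probes in Lig+ cells, 38.9% and so near the share over all probes, with Eef2k, the kinase that inhibits the elongation factor eEF2, at -2.08, -2.04 and -1.93 for its 3 probes. Initiation factors had 4 higher and 12 lower of 71 (22.5%), nascent chain and export partners 6 higher and 3 lower of 23 (39.1%), and mTOR pathway genes 7 higher and 9 lower of 39 (41%), the last 2 again near that share. Sesn3, an inhibitor of the mTOR pathway, was higher in Lig+ cells by 2.22 ± 0.16 for A_51_P246773 and 1.57 ± 0.097 for A_51_P127215 (SE, n = 4), and A_52_P352387 was not called at 0.063 ± 0.059. Markers of other cells moved too: 5 of 6 granulocyte probes were lower in Lig+ cells (median -1.01) and 2 in Lig- cells (-0.33), 5 and 7 of 9 macrophage probes were lower, and 1 and 4 of 5 epithelial probes (medians -0.85 and -1.75). Of 9 erythroid probes 1 was lower in Lig+ and 0 in Lig- cells, of 7 B cell probes 2 were lower in Lig+ cells and 2 higher and 1 lower in Lig- cells, and of 7 double positive probes 1 and 2 were higher. Of 8 T lineage probes 1 was higher and 5 lower in Lig+ cells and 3 each way in Lig- cells. Their part in the changes of these lists and of the ribosomal proteins was not tested.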

How the data were processed

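Spot intensity values in the deposited scanner files were extracted with Agilent Feature Extraction, whose version was 9.5.1.1 on scan day 1 (slides 1 and 2) and 9.5.3.1 on scan day 2 (slides 3 and 4), per the file headers. The values deposited by the authors for the series are log10 ratios with DN4 on top, equal to the scanner's own to within 4.87e-08. Log2 ratios were made here from the deposited intensities with R 4.3.3 and limma 3.58.1: normexp background correction with an offset of 50, loess within arrays, control spots (1639) left out, outlier spots (0.354%) set missing, and spots of a probe averaged. Of 41174 probes, the 34886 with 1 channel clear of background on 3 or more arrays were tested. The fit had terms for Lig+, Lig- and dye, with Benjamini-Hochberg adjustment over all kept probes and a threshold of 0.05. It was run on simulated data made with the same terms and independent noise. Such data cannot show the effect of a slide or scan day that arrays share. The number of arrays limits the precision. Gene names are those of the array, of which 115 of 137 member probes matched RefSeq by accession and 22 by symbol. Named probes are, per comparison, up to 8 rises and 8 falls past the threshold with 1 direction on every array of the group (for Lig+ against Lig-, the 5 smallest p), plus all probes of the stalk, paralogue, MDM2 and Rps19bp1 lists and up to 4 probes of each other list; the Rpl29, Rps3a and Rpl35a probes and the other probes of named genes were added after their values were seen. The members and lists were chosen with earlier results of these data known. Correlations of the scanner's log ratios ran from 0.556 to 0.91 between arrays of 1 dye orientation and from -0.841 to -0.496 between opposite ones.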

Additional observations from a re-analysis of the deposited data

Results flagged for a closer look

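In Lig+ cells, 53 named probes had a value on all 4 arrays. In 7 of them, 1 array stood apart from the other 3 by Dixon's test. For arrays of like design and independent probes, chance marks about 1 in 20. That rate cannot be applied here, since the ratios were not corrected for dye and all probes were read on the same arrays. In 5 of the 7 probes the array apart was Lig+ 1, labelled in the opposite dye orientation to the other Lig+ arrays. A probe that follows the dye sets Lig+ 1 apart by design. Rpl23 A_51_P108190, among the 5, had a dye coefficient of -0.0062 and was no such probe. Lig+ 1 read 2.09 for Rplp1 A_51_P219603, 1.02 for Rpl36a A_52_P481880, 1.21 for Rpl10 A_51_P495895, 0.76 for Rpl7 A_51_P496480 and 0.053 for Rpl23 A_51_P108190. The other arrays of Rplp1 lay between -1.57 and -0.97. Lig+ 2 stood apart at -1.29 for Rps24 A_52_P100002 (others -1.44 to -1.43) and at -0.0096 for Rpsa A_52_P372165 (others 0.28 to 0.34).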

How the results depend on the processing

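Median centring in place of loess left 5 ribosomal protein probes higher in Lig+ cells and 0 in Lig- cells, and a dye median of 1.86. Without a dye term, 5 were higher in Lig+ cells (median -0.54) and 2 in Lig- cells (-0.31), and 1 in Lig+ over Lig- cells. Slide as a random block gave 5 higher in Lig- cells, and 5 higher and 2 lower in Lig+ over Lig- cells, and scan day as a random block 5, then 2 and 2. Scan day as a fixed term gave 37 lower in Lig+ cells, 13 higher and 37 lower in Lig- cells, and 3 higher and 1 lower between them. Scan day 1 alone gave 68 higher and 20 lower in Lig+ cells, 42 and 25 in Lig- cells, 26 and 8 between them and 4 negative dye calls. Scan day 2 alone gave 6 higher and 112 lower (median -1.32) in Lig+ cells, 2 and 102 (-1.12) in Lig- cells and 2 lower between them. Slide as a fixed replicate block, in which replicates 1 to 3 of both groups are paired by slide, gave 4 higher and 1 lower between them. With 1 probe per gene name, the brightest, there were 3 higher and 8 lower in Lig+ cells, 3 and 7 in Lig- cells and 1 higher between them. Fewer probes were tested in that fit, and its dye median was 1.28. The 103 probes read at low gain held 4 and 3 of the lower calls in Lig+ and Lig- cells, and the other 32 held 2 and 1 of the higher calls and 1 dye call, with a dye median of -0.00089, a split chosen after seeing the data. With each array left out, higher and lower calls ran from 2 to 12 and 7 to 26 in Lig+ cells, 1 to 15 and 3 to 17 in Lig- cells, and 0 to 2 and 0 to 1 between them, and dye calls from 0 to 95. Agilent's processed signals, the authors' log ratios and both filters moved no count of changed probes by over 1.5 times. Apart from slide as a fixed block, shares over all probes are not given for these settings. The cause of these shifts was not tested.

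Values of single probes that turned sign and were called in either fit were as follows. Without a dye term Lig+ cells had -0.0092 for Rpl10 A_51_P495895 and -0.14 for Rps21 A_51_P489959. Scan day 1 alone gave 0.17 for Rpl5 and 0.33 for Rpl29 A_51_P400137 in Lig+ cells. With each array left out, Rps27 ran from -1.22 (without Lig+ 1) to 0.59 in Lig+ cells. It was -0.86 in Lig- cells with their own arrays alone. Rps27 had no value on Lig- 1. Without Lig+ 1, or with the Lig- arrays alone, its values all had DN4 RNA in Alexa 555, and dye could not be set apart. On scan day 2 alone, where DN4 RNA was in Alexa 555 throughout, Lig+ cells had -1.5 for Rpsa A_51_P439092, -1.65 for Rplp2, -1.52 for Rplp1, -1.54 for Rps27, -0.86, -1.18 and -1.09 for Rpl36a, -1.1 for Rpl36al, -1.1 for Rps4x A_51_P267995, -1.45 for Rpl22 A_51_P387878, -0.49 and -0.95 for Rpl10, -0.63 for Rpl39, -0.74 for Rpl7 A_51_P496480, -1.25 for Rpl23 A_52_P651894, -1.14 for Rps21 A_51_P489959, -1.12 for Rpl35a A_51_P509107 and -1.72 for Rps26 A_51_P302675. Lig- cells there had -1.19 for Rplp2, -1.31 for Rplp1, -1.14 for Rps27, -0.6 and -0.91 for Rpl36a, -1.04 for Rpl36al, -0.71 for Rps4x A_51_P267995, -1.13 for Rpl22 A_51_P387878, -0.33 and -0.7 for Rpl10, -0.52 for Rpl39, -1.07 for Rpl11 A_51_P394524, -1.75 for Rpl5, -1.24 for Rpl23 A_52_P651894, -1.44 for Rps21 A_51_P489959 and -0.84 for Rpl35a A_51_P509107.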
